A study of Arabidopsis thaliana with 12 samples.

Results

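In mature Arabidopsis thaliana seed, 43 transcripts stood away from the wild-type long-day level in the same direction after short days and in the ft-1 mutant, while seed ripened at 10 °C stayed near that level. They are a raised set of 23 and a lowered set of 20 probe sets, out of 22746 on the array that are not AFFX controls. Members were chosen on the log2 scale from 9125 probe sets with a mean of 5 or more over 12 arrays. The means of short-day and ft-1 seed both had to lie at least 0.8 from the reference mean in one direction, and the mean at 10 °C less than 0.5 from it in either. The rule took 0.252% of the 9125 as raised and 0.219% as lowered. The 3 differences from the reference therefore describe the members and were not tested.

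In Arabidopsis, day length is measured in the leaves. Long days lead to a mobile flowering signal that is impaired in ft-1 plants, so that these plants in long days flower late, as wild-type plants in short days do. Seed ripens on that mother plant, and the temperature and light it receives are known to alter seed dormancy, the state in which a ripe seed does not germinate in favourable conditions. Dry seed holds stored messenger RNA that was made during ripening.

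The series used 1 Affymetrix ATH1 array for each of 12 samples of seed from opened siliques, with 3 arrays in each of 4 groups. The reference was wild-type Landsberg erecta (Ler) at 20 °C in 16 h days. Short-day seed came from wild-type Ler at 20 °C in 8 h days. Cool seed came from wild-type Ler raised to flowering at 20 °C in 16 h days and then moved to 10 °C. The label of the cool group is long-day, like that of the reference. The ft-1 mutant, in the Ler background, was grown like the reference. Its stock is described as carrying a single marker, its source name is Glabra, and the gene that carries ft-1 was not analysed here, so the genotype label could not be checked on the arrays. The labels give all groups the same compost, light level and developmental stage. They do not state whether the numbered samples are separate harvests, so a p-value covers only the variation among these arrays, which may be technical.

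Values are log2 of the deposited signal, which is scaled within each array, so a level is relative to the other transcripts of that array. Transcripts that define ripe seed were abundant. The summed signal of the 19 named late embryogenesis genes lay between 105948 and 161343 on every array, beside 643 to 1334 for 7 named genes of green tissue. Fewer cells of a type and less RNA per cell cannot be told apart in such samples. The ft-1 arrays differed from each other: the mean log2 signal of 24 poly-A control probe sets was 5.65, 7.87 and 6.09 on ft-1 arrays 1, 2 and 3. It was 6.51 to 6.99 in the reference, 7.68 to 7.74 in short-day seed and 8.12 to 8.85 in cool seed. Arrays 1 and 3 of ft-1 thus lay below every array of the other groups, and array 2 lay between the short-day and the cool arrays. The GAPDH 3' minus 5' log2 signal, a sign of RNA quality, was 0.463 ± 0.269 in the reference, 1.04 ± 0.559 in short days, 0.955 ± 0.131 in ft-1 and 1.52 ± 0.241 in cool seed (SD, n = 3 each). A second pair of GAPDH probe sets gave 0.372, 0.358, 0.393 and 0.0110 in the same order, and the part of either in the members' values was not tested.

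The raised set had reference means from 4.44 to 9.92 with a median of 6.25 on the log2 scale. Short-day seed lay 0.82 to 2.56 above the reference (median difference 1.10) and ft-1 seed 0.82 to 2.24 above it (median 0.94). Cool seed lay between -0.40 and 0.45 of it (median 0.23), higher for 17 probe sets and lower for 6. The rule bounded this difference, which shares the reference arrays with the short-day and ft-1 differences, so nothing is read from that split. Over all 9125 probe sets the median differences were -0.04 in short days, -0.04 in ft-1 and -0.18 at 10 °C.

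The lowered set had reference means from 5.61 to 9.29 with a median of 6.84. Differences ran from -2.30 to -0.89 in short-day seed (median -1.33) and from -1.96 to -0.81 in ft-1 seed (median -0.96). At 10 °C they ran from -0.44 to 0.40 with a median of 0.02, and 10 probe sets lay on each side of the reference. In both sets the short-day difference was more often the larger, for 16 of 23 raised and 15 of 20 lowered members. The rule used both differences, and the share over all 9125 probe sets was not computed, so nothing is read from these counts.

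**Figure D1:**
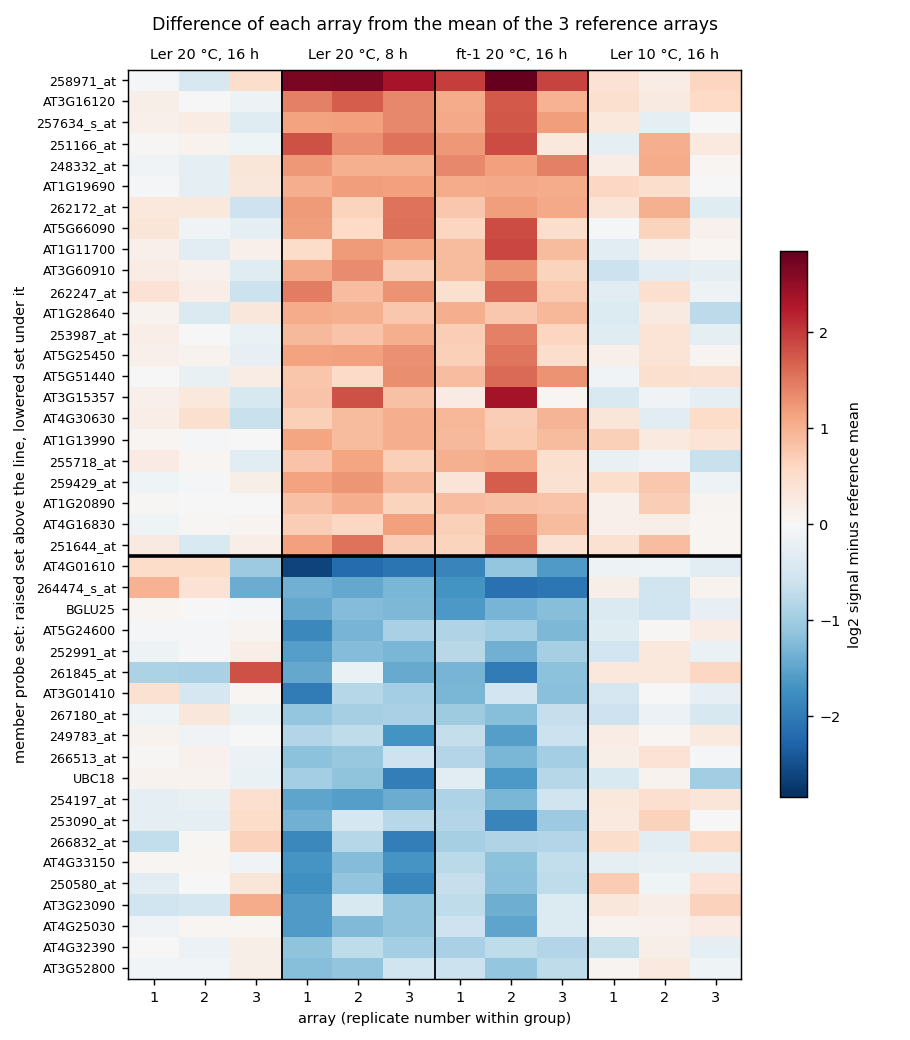
Each row is a member probe set and each column an array, numbered within its group. Colour gives log2 signal minus the mean of the 3 reference arrays, with the raised set above the thick line. All 23 raised members are above the reference mean on all 6 short-day and ft-1 arrays, and all 20 lowered members are below it. Members were chosen by the means of these arrays, so nothing is read from this order.

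On single arrays the groups separated for most members. All 6 short-day and ft-1 arrays lay above all 3 reference arrays for 22 of 23 raised members, where 5.6% of the 9125 probe sets showed that order. The exception was AT3G15357. All 6 lay below for 17 of 20 lowered members, against 5.72% of the 9125, with AT3G23090 and the unnamed 264474_s_at and 261845_at as exceptions. Since the rule used these means, nothing is read from those counts. Against the 3 cool arrays, the 6 lay wholly above for 15 raised members (16% of the 9125) and wholly below for 19 lowered members (11.6% of the 9125), and UBC18 was the lowered exception. The rule used the cool mean too, so nothing is read from these counts either.

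The limit at 10 °C removed most candidates. Short-day and ft-1 seed were both past 0.8 for 106 probe sets on the raised side and 137 on the lowered side, and 83 and 117 of these differed by 0.5 or more at 10 °C. Of all 9125, 46.9% lay within that limit. The 3 differences share the reference arrays, so a reference array that reads high or low moves all of them at once. Within groups, the median SD of the raised members was 0.295 in the reference, 0.205 in short days, 0.366 in ft-1 and 0.323 at 10 °C (n = 3 each). For the lowered members it was 0.222, 0.328, 0.291 and 0.230 in the same order.

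A cytoskeletal gene led the named raised members. AT3G16120, of the dynein light chain family, read 9.23, 9.07 and 8.92 on the reference arrays, 10.50, 10.79 and 10.45 in short days, and 10.12, 10.81 and 10.06 in ft-1. Cool seed read 9.52, 9.33 and 9.63. The 6 short-day and ft-1 arrays lay above the other 6, at 2.84-fold the reference in short days and 2.39-fold in ft-1.

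The unnamed 258971_at had the largest difference of the raised set. Its reference arrays read 5.66, 5.24 and 6.21, its short-day arrays 8.37, 8.39 and 8.04, its ft-1 arrays 7.67, 8.54 and 7.62, and its cool arrays 6.11, 5.92 and 6.32. No array of the first and last groups came within 1 log2 unit of the short-day and ft-1 arrays. The probe set 257634_s_at, which has several genes, read 6.38, 6.46 and 5.90 in the reference, 7.40, 7.40 and 7.62 in short days, 7.32, 8.00 and 7.44 in ft-1, and 6.56, 5.99 and 6.25 at 10 °C. The brightest member, the unnamed 248332_at, reached 10.92 to 11.16 in short days and 11.09 to 11.34 in ft-1 from 9.67 to 10.26 in the reference, but its cool array 2 at 10.97 lay among them.

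Mitochondrial proteins and chaperones were represented by a pair of genes. AT5G25450 encodes a subunit of the cytochrome bc1 complex of the respiratory chain. It read 8.96, 8.93 and 8.59 in the reference, 9.96, 10.00 and 10.13 in short days, 9.50, 10.36 and 9.32 in ft-1, and 8.98, 9.21 and 8.90 in cool seed. All short-day and ft-1 arrays were higher than the other 6, and ft-1 array 2 was the highest of all.

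AT5G51440 encodes a small heat shock protein of mitochondria, a chaperone that binds unfolding proteins. Its reference arrays read 4.44, 4.22 and 4.65, its short-day arrays 5.23, 4.98 and 5.75, its ft-1 arrays 5.32, 6.05 and 5.72, and its cool arrays 4.33, 4.88 and 4.86. It is one of 7 raised members whose ft-1 difference (1.26) was larger than the short-day one (0.88), and it is a dim transcript whose short-day array 2 lay only just above the cool arrays.

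Enzymes of several families made up a further group. AT1G19690, of a family that binds NAD(P), read 4.86, 4.61 and 5.23 in the reference against 5.94, 6.08 and 6.06 in short days and 5.94, 5.97 and 5.94 in ft-1, with 5.50, 5.40 and 4.89 at 10 °C. Its ft-1 arrays agreed to within 0.03, and no reference or cool array reached them.

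AT3G60910, of the S-adenosylmethionine-dependent methyltransferase family, read 7.93, 7.85 and 7.38 in the reference, 8.80, 9.06 and 8.43 in short days, 8.63, 8.99 and 8.35 in ft-1, and 7.11, 7.39 and 7.44 in cool seed. Cool seed was on the opposite side of the reference, by -0.40. AT1G28640, a GDSL esterase/lipase family member, read 6.30, 5.78 and 6.52 in the reference, 7.24, 7.21 and 6.95 in short days, 7.23, 6.96 and 7.14 in ft-1, and 5.81, 6.45 and 5.47 in cool seed. Both genes had every short-day and ft-1 array above the other 6.

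Among regulators, AT4G16830 encodes a protein with RGG repeats that binds RNA. It read 8.66, 8.81 and 8.84 in the reference, 9.47, 9.37 and 9.94 in short days, 9.44, 10.05 and 9.68 in ft-1, and 8.92, 8.95 and 8.83 in cool seed. Its short-day and ft-1 arrays lay above the other 6. AT1G11700, of the senescence regulator family, read 7.02, 6.59 and 7.04, then 7.40, 8.10 and 7.97, then 7.78, 8.79 and 7.78, and 6.58, 7.03 and 6.94 in the same group order. Here too the 6 arrays lay above the others.

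**Figure D2:**
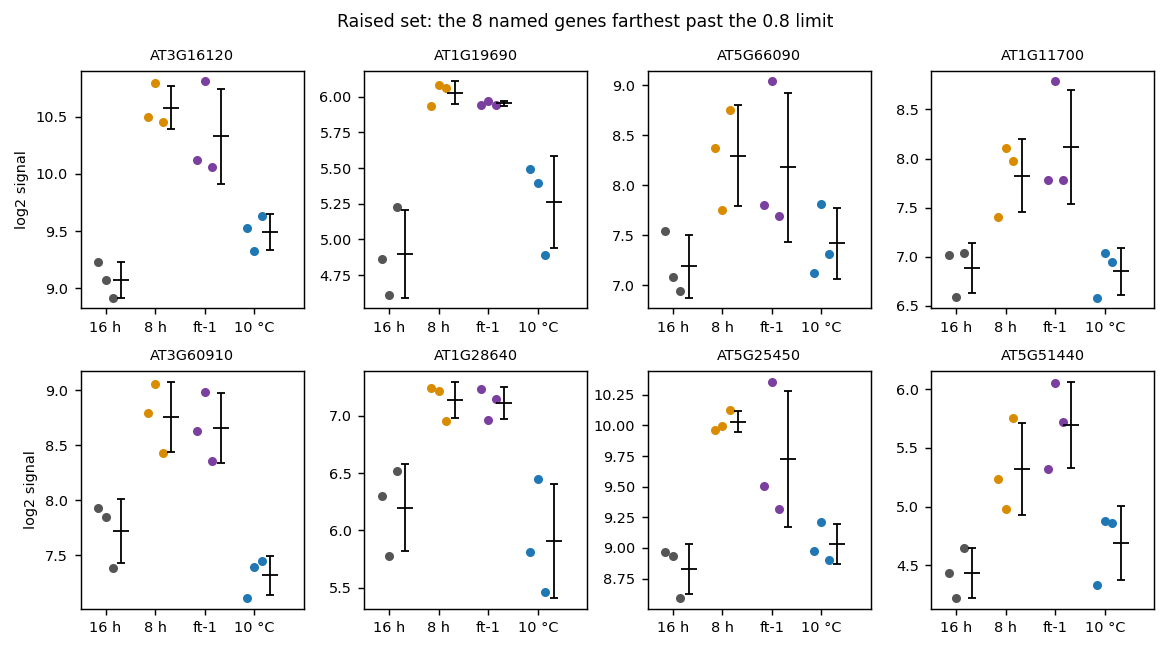
Points are single arrays on the log2 scale for 8 named raised genes, in the order reference (16 h), short days (8 h), ft-1 and 10 °C. Bars to the right of the points give the mean and SD (n = 3), and each panel has its own axis. In all 8 panels the short-day and ft-1 points lie above the reference points, an order that the choice of members by group means favours.

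The other named raised members, for which no role is given here, differed in how firmly their arrays separated. AT1G13990 was among the brightest, at 9.82, 9.73 and 9.76 in the reference, 10.89, 10.66 and 10.81 in short days and 10.70, 10.52 and 10.67 in ft-1. Its cool arrays lay between, at 10.44, 10.05 and 10.17, above all reference arrays and below the other 6. AT1G20890 showed differences of 0.83 and 0.85, with cool array 2 at 7.08 inside the short-day range of 7.00 to 7.41.

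AT5G66090 ranged from 7.76 to 8.76 in short days and from 7.70 to 9.04 in ft-1, so that cool array 2 at 7.82 overlapped both. AT4G30630 overlapped its cool arrays nowhere but had a wide reference, from 4.86 to 5.94. AT3G15357 rested on single arrays: it read 6.47, 6.63 and 5.87 in the reference, 7.14, 8.12 and 7.14 in short days, and 6.54, 8.68 and 6.37 in ft-1. Without ft-1 array 2 its ft-1 difference was 0.13 in place of 0.87.

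Proteolysis genes were among the lowered members. AT4G01610, a cathepsin B-like cysteine protease, had the largest short-day difference of the set. It read 7.87, 7.87 and 6.33 in the reference, 4.72, 5.17 and 5.27 in short days, 5.47, 6.25 and 5.74 in ft-1, and 7.22, 7.24 and 7.03 at 10 °C. Its level was 4.92-fold lower in short days and 2.89-fold lower in ft-1, and reference array 3 lay just above the highest ft-1 array.

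UBC18, a ubiquitin-conjugating enzyme, read 7.34, 7.35 and 7.05 in the reference, 6.28, 6.11 and 5.27 in short days, 6.92, 5.60 and 6.44 in ft-1, and 6.81, 7.35 and 6.25 in cool seed. The reference arrays were above the 6 others, but the cool arrays overlapped all 3 other groups.

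Enzymes of metabolism were also lowered members. BGLU25, a beta-glucosidase, read 8.32, 8.30 and 8.22 in the reference, 6.83, 7.05 and 7.00 in short days, 6.64, 6.96 and 7.07 in ft-1, and 7.87, 7.71 and 8.05 in cool seed. Every reference and cool array lay above every short-day and ft-1 array, and the differences were nearly equal at -1.32 and -1.39.

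AT4G33150 encodes the bifunctional enzyme of lysine breakdown, lysine-ketoglutarate reductase and saccharopine dehydrogenase. It read 8.69, 8.70 and 8.54 in the reference, 6.96, 7.41 and 6.97 in short days, 7.89, 7.48 and 7.94 in ft-1, and 8.36, 8.44 and 8.44 at 10 °C. No groups overlapped: ft-1 seed lay between short-day seed and the others.

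Among further members with a known family, AT3G01410, of the RNase H family, read 6.20, 5.30 and 5.82 in the reference, 3.79, 4.97 and 4.80 in short days, and 4.47, 5.23 and 4.59 in ft-1. Its ft-1 array 2 was just below the lowest reference array. AT4G32390, of the nucleotide-sugar and phosphate translocator family, read 6.62, 6.47 and 6.81 in the reference against 5.50 to 5.91 in short days and 5.70 to 5.92 in ft-1, and AT3G52800, of the A20/AN1 zinc finger family of stress-associated proteins, read 6.23, 6.23 and 6.47 against 5.11 to 5.75 and 5.22 to 5.70. Neither had a short-day or ft-1 array as high as its lowest cool array, 6.01 and 6.19.

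AT3G23090, which encodes the microtubule-associated WDL3 protein, read 6.66, 6.73 and 8.28 in the reference, 5.62, 6.79 and 6.10 in short days, 6.51, 5.84 and 6.83 in ft-1, and 7.54, 7.41 and 7.88 at 10 °C. Its reference arrays overlapped the short-day and ft-1 arrays, and without reference array 3 its differences were -0.53 and -0.30. The unnamed 261845_at had the same reference array out of line, at 7.76 beside 5.06 and 5.03, and 264474_s_at had it low, at 7.27 beside 9.69 and 9.11.

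AT5G24600 and AT4G25030 complete the named lowered members. The first read 5.58, 5.56 and 5.69 in the reference, 3.78, 4.30 and 4.69 in short days, and 4.75, 4.64 and 4.34 in ft-1. The second read 6.60, 6.74 and 6.74, then 5.09, 5.44 and 5.57, then 6.10, 5.19 and 6.31, so that its ft-1 arrays 1 and 3 lay close to the reference. Cool arrays were at or above 5.26 and 6.79.

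Of the unnamed lowered probe sets, 252991_at read 6.57, 6.70 and 6.90 in the reference, 5.15, 5.49 and 5.43 in short days, 5.94, 5.37 and 5.78 in ft-1, and 6.19, 7.02 and 6.53 at 10 °C. The dimmer 266513_at read 5.97, 6.06 and 5.78, then 4.77, 4.87 and 5.35, then 5.12, 4.65 and 4.97, and 6.10, 6.34 and 5.89. In both, the reference and cool arrays lay above the 6 others. Of the 10 unnamed lowered probe sets, 8 had their short-day and ft-1 arrays wholly below the reference arrays and 10 wholly below the cool arrays. Of the 10 raised ones without a single gene, 10 had them wholly above the reference arrays but 4 wholly above the cool arrays. The rule used the means of these groups, so nothing is read from these counts.

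**Figure D3:**
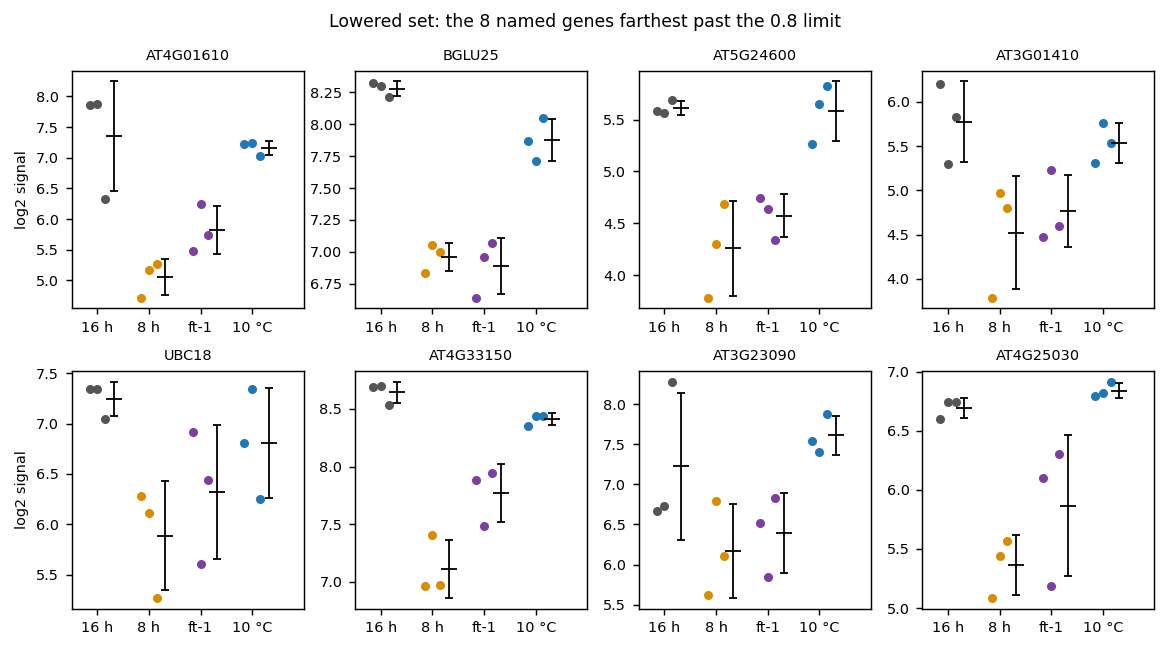
Points are single arrays on the log2 scale for 8 named lowered genes, grouped as reference (16 h), short days (8 h), ft-1 and 10 °C, with the mean and SD (n = 3) to the right and an axis for each panel. BGLU25 has every reference and cool point above every short-day and ft-1 point, and AT3G23090 shows the overlap of reference with short-day and ft-1 arrays.

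The rule did not set a limit on the difference between short-day and ft-1 seed, which limma tested over 13648 probe sets. It did place both means on one side of the reference, which favours members with a small difference, so nothing is read from how few passed. None of the 43 members passed an adjusted p of 0.05, where 0.176% of all tested probe sets did, and at an unadjusted p under 0.05 there were 0 raised and 4 lowered members, against 6.61% of all. The lysine enzyme gene AT4G33150 had the lowest adjusted p, 0.308, with ft-1 above short days by 0.66 on the log2 scale (SE 0.19, 95% interval 0.25 to 1.06). The protease gene AT4G01610 was higher in ft-1 by 0.77 (interval 0.01 to 1.53, adjusted p = 0.750 in limma).

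The median difference, ft-1 minus short-day, was -0.11 for the raised set (from -0.41 to 0.38) and 0.24 for the lowered set (from -0.59 to 0.77), beside 0.0082 over all 9125 probe sets. A test that misses the threshold does not show equal levels. The 95% interval lay within 1 log2 unit of 0 for 20 of 23 raised and 9 of 20 lowered members. The share over all tested probe sets was not computed, and the rule favours a small difference, so nothing is read from these counts. With array weights 5 raised and 5 lowered members passed, where 16.8% of all tested probe sets did, among them AT3G16120, AT5G25450, AT4G33150 and AT4G25030, and in each of these 4 ft-1 lay nearer to the reference. Without ft-1 array 2, AT4G33150 (adjusted p = 0.0245) and AT4G25030 (adjusted p = 0.0344) passed in limma, where 4.64% of all did, a share near that of the members.

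**Figure D4:**
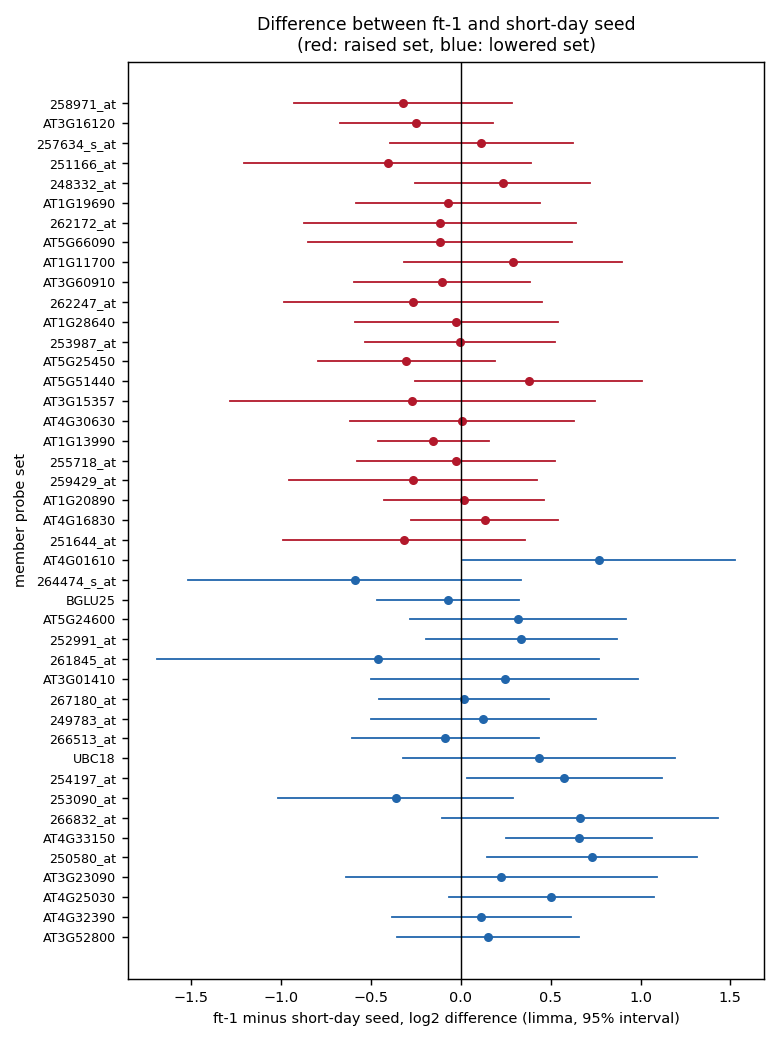
Points give ft-1 minus short-day seed in log2 units for each member, with 95% intervals from limma on 12 arrays. Red marks the raised and blue the lowered set. Most intervals include 0, and 4 lowered members, AT4G01610, AT4G33150, 254197_at and 250580_at, have intervals above it.

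How far the membership follows single arrays was described by leaving out every array with one number and choosing again from the rest. Among probe sets chosen without the arrays numbered 1, the left-out short-day and ft-1 arrays both lay on the chosen side of the left-out reference array for 39 of 45 raised (29.4% of all probe sets with a mean of 5 or more) and 31 of 37 lowered (33% of all). Without number 2 the counts were 14 of 15 raised (34.5% of all) and 9 of 15 lowered (42.3% of all). Without number 3 they were 22 of 35 raised (33.3% of all) and 19 of 29 lowered (34.9% of all).

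For numbers 1 and 3 the medians were smaller in the left-out arrays than in those used to choose. For number 2 the ft-1 medians were not, at 0.98 and -1.06 in the arrays used. Left-out medians for the raised side were 0.73 in short days and 0.50 in ft-1 for number 1, 1.20 and 1.42 for number 2, and 0.45 and 0.47 for number 3. For the lowered side they were -1.06 and -0.43, -1.01 and -1.07, and -0.71 and -0.30. Left-out arrays met the whole rule on the raised side for 4, 2 and 2 of the chosen probe sets with numbers 1, 2 and 3 (0.295%, 0.866% and 0.593% of all). On the lowered side it was 5, 2 and 2 (0.24%, 0.986% and 0.593% of all). The left-out cool array lay within 0.5 of the reference array for 26 of 45 raised and 19 of 37 lowered with number 1, and for 22 of 35 and 15 of 29 with number 3. With number 2 it did so for 4 of 15 and 5 of 15, and the raised median at 10 °C was 0.71.

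**Figure D5:**
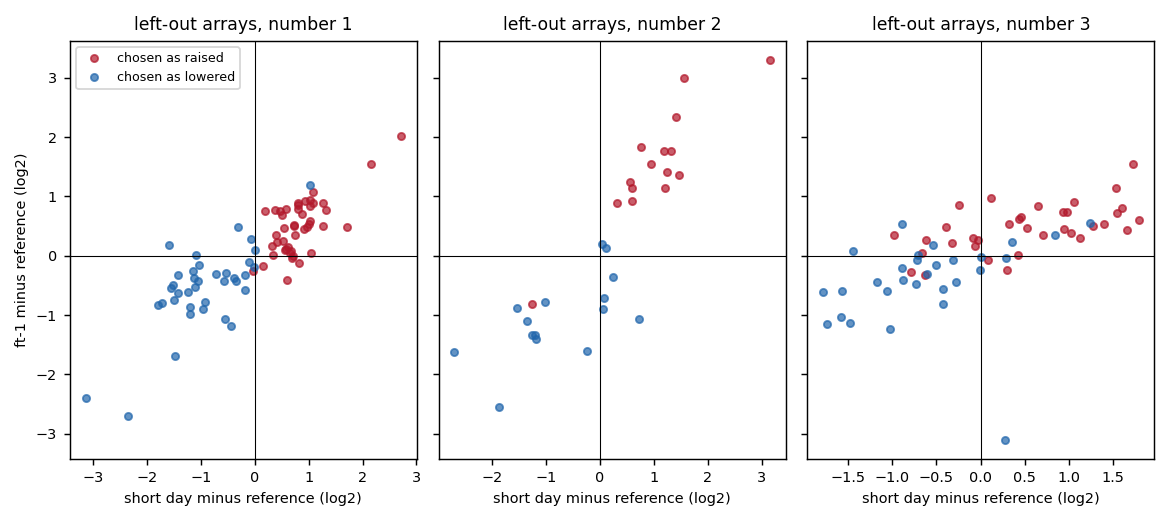
Each panel shows probe sets chosen without the arrays of one number, plotted at the short-day (horizontal) and ft-1 (vertical) log2 difference from the reference in the left-out arrays, with red for those chosen as raised and blue as lowered. Most red points lie in the upper right and most blue points in the lower left. The share that does so is lower for number 3, and for the blue points of number 2, than for number 1.

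The ft-1 arrays were unequal. Array 2, whose poly-A controls were the highest of the 3, was the highest for 18 of 23 raised members and the lowest for 14 of 20 lowered ones. The rule used the ft-1 mean, and the share over all 9125 probe sets was not computed, so nothing is read from these counts. Over all 9125 the median SD within a group was also largest in ft-1, at 0.324. The median member difference on ft-1 arrays 1, 2 and 3 was 0.90, 1.43 and 0.89 in the raised set and -0.85, -1.30 and -0.83 in the lowered set. On short-day arrays it was 1.12, 1.12 and 1.09, and -1.49, -1.12 and -1.29. With the poly-A mean as a covariate no member changed its short-day or ft-1 direction. The median differences were 0.87 in short days and 1.04 in ft-1 for the raised set, and -1.02 and -1.02 for the lowered set. That fit took its slope mostly from ft-1 array 2 against the other ft-1 arrays. The SD of the poly-A mean was 1.18 within ft-1, against 0.268 in the reference, 0.0327 in short days and 0.395 in cool seed. Group poly-A means were 6.82 in the reference, 6.54 in ft-1, 7.71 in short days and 8.57 in cool seed. The ft-1 differences could therefore move little, and the 10 °C values moved more. With the covariate their median was -0.19 in the raised set (from -1.90 to 0.90) and 0.47 in the lowered set (from -0.93 to 1.36), and 9 raised and 12 lowered members were 0.5 or more from the reference. When arrays were scaled on the hybridisation controls, 9 raised and 13 lowered members were.

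The sets depended on single arrays. Applied without ft-1 array 2, the rule chose 11 raised probe sets, all of them members, and it chose 38 when reference array 1 was dropped. Dropping the first or the last ft-1 array gave 36 and 38. Without reference array 2 it chose 31 lowered probe sets. Without reference array 3, 11 raised and 13 lowered members were lost, the most for any left-out array in the lowered set. The members kept in all 12 left-out cases were 257634_s_at among the raised, and BGLU25, 252991_at and 266513_at among the lowered. When each array was centred on its median, the rule chose 63 raised and 11 lowered probe sets in place of 23 and 20.

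Members near the limit differed little from those left out. Just inside were AT4G16830, with a smaller difference of 0.82, AT1G20890 with 0.83 and AT1G13990 with 0.86. Just outside were AT1G26800 at 0.78, AT5G41270 at 0.77 and AT2G18400 at 0.77. On the lowered side AT3G52800 (-0.81), AT4G32390 (-0.83) and AT4G25030 (-0.83) lay inside, and AT4G35070 (-0.80), AT4G33666 (-0.79) and AT1G73480 (-0.76) outside.

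The mean signal of the members had a median percentile of 45.3 in the raised set and 30.9 in the lowered set among the 9125. Raised loci lay on chromosomes 1 (5 genes), 3 (3), 4 (2) and 5 (3), and lowered loci on chromosomes 3 (4), 4 (4) and 5 (2), by the TAIR10.1 gene table. Of all named probe sets with a mean of 5 or more, 25.4%, 14.3%, 20.9%, 14.1% and 24.2% lay on chromosomes 1, 2, 3, 4 and 5. Nothing is read from counts this small. No 2 member genes lay within 10 genes of each other, and no member gene had a further probe set with which to check it.

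Gene lists for seed and stress biology held 1 member in all, the small heat shock gene AT5G51440. Of the 7 other tested genes of that list, 6 rose in short days, where 0.725% of all tested probe sets rose, and 4 in ft-1, where 0.249% rose, in limma at an adjusted p under 0.05. AT1G52560 was higher by 1.79 in short days and 2.10 in ft-1, and ATHSP22.0 by 2.98 and 2.91. These 7 genes were also higher at 10 °C, by 1.03 to 3.04, and AT5G51440 was higher there by 0.25. As AT5G51440 is a member, the rule held its 10 °C difference under 0.5, so nothing is read from that contrast. The count of 6 was 3 without reference array 1 or 2 and 1 without short-day array 1 or 3, and the count of 4 was 2 without any one of the reference arrays or short-day array 1, and 0 in a fit of the ft-1 and reference arrays alone.

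Of 6 tested larger chaperones and their partners, 1 rose in short days and 2 in ft-1, among them the DnaJ-type AT2G20560 (1.44 and 1.17). Of 19 late embryogenesis abundant genes, which protect drying seed, M17 (0.55) and AT3G22490 (0.67) rose in short days and 0 rose in ft-1. No gene of the 7 storage and oil body, 5 dormancy and hormone, 4 flavonoid and seed coat, 6 green tissue, 2 stress and 1 clock genes tested passed in either direction, and no gene of any list fell, where 1.06% of all tested probe sets fell in short days and 0.139% in ft-1. The 1 named endosperm gene was too dim to be tested, and the heat shock factor and embryo epidermis lists had 0 named genes.

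Of 8 tested pollen genes, none of them members, 4 rose in short days and 2 in ft-1. Their list's summed signal was 154 to 258 in the reference, 592 to 689 in short days, 243 to 1313 in ft-1 and 546 to 590 in cool seed, where the rule kept the members near the reference. That of green tissue was 825 to 1334, 845 to 983, 643 to 894 and 1084 to 1230 in the same order. No deposited value was 0. Their part in the members' values was not tested.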

How the data were processed

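The authors deposited 1 intensity per probe set and array on a linear scale, from MAS5 and GCOS according to the processing notes given by the submitters (no version stated). The mean of each array without its lowest and highest 2% is 100. The deposited scaling was kept and intensities were log2-transformed. MAS5 subtracts background and mismatch signal, so dim values are noisy, and a change in total messenger RNA cannot be seen. The number of arrays, 3 in each group, limits the precision. Of 22810 probe sets, 64 AFFX controls were left out.

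Members and gene lists were chosen with earlier results of these data known. Tests used limma 3.58.1 in R 4.3.3, with 1 coefficient per group on 12 arrays, an intensity-dependent prior and Benjamini-Hochberg adjustment over 13648 probe sets at or above the 40th percentile of mean signal. A gene "rose" or "fell" at an adjusted p under 0.05. The fit was tested on simulated data with independent noise, the same spread in every group and no array effects, so that test does not cover unequal arrays.

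Gene names came from the platform annotation and were updated through TAIR10.1 identifiers. Of the members 23 had 1 gene, 1 had several and 19 were unnamed here. Named were the 12 single-gene members of each set with the largest smaller difference, the 8 with the highest mean, list members, the 3 nearest genes on each side of the limit, and up to 4 genes of each list by smallest p. Unnamed probe sets and single arrays were singled out after their values were seen. Promoter motifs, which had been planned, were not analysed here. Chromosome and gene order came from the TAIR10.1 gene table. Coordinates are left out, since no source states the build of the probe annotation. The alternatives tried were quantile normalization, median centring, an offset of 16, other thresholds, other filters, a fit without a variance trend, array weights, fits restricted to 2 groups, a replicate block, the poly-A controls as a covariate and each array left out. Scaling on 18 hybridisation controls, and the poly-A covariate for members' values, were added after the data were seen.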

Additional observations from a re-analysis of the deposited data

How the results depend on the processing

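Of 946 recomputed short-day and ft-1 differences of members from the reference, left-out arrays counted only where they enter the difference, 0 changed direction, 891 moved by less than the spread between replicates and 55 by more. Members were chosen for differences of at least 0.8 on these arrays, which makes a change of direction unlikely. A wide spread also hides large moves. The ft-1 difference of AT3G15357 fell from 0.87 to 0.13 without ft-1 array 2 and is among the 891. Stability is therefore not read from these counts. The 10 °C difference reached 0.5 for 7 raised and 5 lowered members with quantile normalization, 9 and 13 with hybridisation-control scaling, 9 and 12 with the poly-A covariate, 0 and 0 with median centring or the offset, and 1 to 5 and 0 to 10 with single reference or cool arrays left out, with the 10 lowered without reference array 3. Membership moved too. In place of 23 raised and 20 lowered probe sets, the rule chose 63 and 11 with median centring, 14 and 11 with an offset of 16, 7 and 7 at a minimum difference of 1, 77 and 58 at 0.6, 11 and 12 with a limit of 0.3 at 10 °C, and 39 and 39 with a limit of 0.8. A minimum mean of 4 gave 44 lowered. Leaving out single arrays gave 11 to 38 raised and 14 to 31 lowered. Quantile normalization chose 25 and 23, of which 15 and 12 were members, and hybridisation-control scaling 20 and 26, of which 7 and 7 were members. Hybridisation-control scaling put the median of all tested probe sets at -0.34 in short days and -0.12 in ft-1, against -0.06 and -0.06 with the deposited scaling. Members called between ft-1 and short days were 0, with 5 raised and 5 lowered under array weights, and 0 to 0 raised and 0 to 2 lowered with single arrays left out.

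List genes outside the sets that rose numbered 13 in short days, and 29 with array weights, 7 with hybridisation-control scaling, 5 without a variance trend, 20 in a fit of only the 2 groups, 7 with the poly-A covariate and 2 to 20 with arrays left out. Those that rose in ft-1 numbered 8, and 20, 5, 1, 0 and 17 under the same settings and 2 to 15 with arrays left out. Those that fell numbered 0 in short days, and 3 with array weights, 2 with hybridisation-control scaling, 1 in the fit of 2 groups and 0 to 2 with arrays left out. In ft-1 they numbered 0, and 6 with array weights, 2 with the poly-A covariate and 0 to 1 with arrays left out. Small heat shock genes outside the sets that rose in short days numbered 6, and 3 with hybridisation-control scaling and 1 to 7 with arrays left out. In ft-1 they numbered 4, and 7 with array weights, 1 without a trend, 0 in the fit of 2 groups and 2 to 5 with arrays left out. Causes were not tested.

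Of 18 same-number correlations of array deviations from the group mean, 2 were over 0.1. Such deviations cancel within a group, so this count does not settle whether the replicate numbers pair the arrays. With the number as a replicate block, 3 list genes rose in ft-1 in place of 8, and the calls over all probe sets were 133 in place of 243 in short days, 22 in place of 53 in ft-1 and 11 in place of 24 between ft-1 and short days. Array weights gave 2447, 1767 and 2295. With 3 arrays in each group, small differences between probe sets cannot be resolved.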
